A study of Mus musculus with 60 samples.

Results

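The 43 genes described here encode the numbered subunits of the mouse proteasome and its activators, out of 18088 genes in the deposited table. They were chosen by name alone: every row whose gene symbol was Psma, Psmb, Psmc, Psmd or Psme followed only by digits, with pseudogenes left out. By role they comprised 7 alpha and 7 beta subunits of the constitutive core, 3 immunoproteasome subunits, 2 tissue-restricted core subunits (Psma8 and Psmb11), 6 ATPases of the base, 3 base subunits without ATPase activity, 8 lid subunits, 3 assembly chaperones of the regulatory particle (Psmd5, Psmd9 and Psmd10) and 4 activator genes (Psme1 to Psme4). All 43 passed the filter on low values.

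The tissue was dissected prefrontal cortex, taken on postnatal day 25 from mice of the strain C57BL/6J. The 60 libraries fell into 12 groups of 5, which crossed 2 genotypes (labelled HT, heterozygous for the ubiquitin ligase gene Trip12, and WT), 2 sexes and 3 treatments. Vehicle, fluoxetine (a selective serotonin reuptake inhibitor) or lithium (a mood stabiliser) reached the pups through their dam's milk from postnatal day 3 to 24, so the vehicle groups had the same exposure route. The labels state neither the Trip12 allele nor which animals shared a litter, so p-values measure only the spread among these samples. In whole tissue, fewer cells of a type and less RNA per cell cannot be told apart.

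The proteasome is the protease that degrades most ubiquitin-tagged proteins. Its barrel-shaped 20S core consists of outer rings of alpha subunits, which gate the entrance, and inner rings of beta subunits, of which Psmb5, Psmb6 and Psmb7 carry the active sites. The 19S regulatory particle caps the barrel: its base of ATPases (Psmc genes) unfolds the substrate, and its lid, with the deubiquitinase Psmd14, removes the ubiquitin chain. Interferon-induced Psmb8, Psmb9 and Psmb10 can replace the catalytic subunits to form the immunoproteasome, and the Psme proteins are alternative caps. In neurons the proteasome takes part in the turnover of synaptic proteins.

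Values are normalized counts: reads of a gene divided by 1 size factor per library. A difference is a log2 fold change ± SE from limma on log2(normalized count + 1), a scale that understates changes of low genes. A gene was called, and is said to have risen or fallen, at a Benjamini-Hochberg adjusted p under 0.05 over the 17804 genes tested in that comparison. The comparisons of each drug with vehicle share the vehicle libraries.

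Trip12, the gene named in the genotype, was not lower in the libraries labelled HT. It ran from 5720 through a median of 6137 to 6953 normalized counts in the 10 vehicle libraries labelled HT and from 5099 through 5791 to 6126 in the 10 WT vehicle libraries. Under fluoxetine Trip12 ran from 6219 to 6632 against 4394 to 6362, and under lithium from 5489 to 6332 against 5179 to 5956. Over all treatments Trip12 was higher in libraries labelled HT (log2 fold change 0.11 ± 0.02, limma adjusted p = 0.0014, 28 of 30 libraries above the WT mean). The part of the gene that the allele alters is not given in the labels, so a total over all exons may not check them. Every genotype direction below therefore rests on the labels alone, and HT in the name of a library is its label.

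Libraries held from 25.1 M to 36.6 M reads, and depth moved with treatment: 26.6 M to 31.0 M under vehicle, 32.7 M to 36.6 M under fluoxetine and 25.1 M to 35.9 M under lithium. Markers of cortical excitatory neurons, among them Slc17a7, were present in every library, with a summed level of 46470 to 68790 normalized counts over 6 genes. Markers of neighbouring tissue varied far more: 6 olfactory bulb genes summed to between 294.2 and 11490 and 8 striatal genes to between 5528 and 19400. A pair of libraries stood apart. WT fluoxetine male replicate 2 had a length slope (the dependence of its values on gene length) of -0.170 against -0.0491 in the next lowest library. HT vehicle male replicate 1 had a GC slope of -2.61 against -1.35 in the next lowest. Results that rest on either are given without them. Exons of Psmb7, Psmb9, Psmc3, Psmd1, Psmd13 and Psme1 overlap those of another gene in the table (0.6 to 11.8% of their exon bases), and whether counting used strand is not given in the sources used here, so reads there may not be separable.

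Per kilobase of exon, the constitutive subunits lay between 271.5 and 2496 normalized counts, and the inducible Psmb8 and Psmb9 and the tissue-restricted Psma8 and Psmb11 lay far below them. The inducible Psmb10, at 304.4, lay within the constitutive range. The base ATPase Psmc5 was the highest of the 43 at 2496 ± 180.4 normalized counts per kb (mean ± SD, n = 60) and remained first when the longest transcript was used as the length. Core alpha levels ran from 516.5 per kb for Psma3 to 1371 for Psma6, and core beta levels from 514.6 for Psmb3 to 1736 for Psmb5, the chymotrypsin-like subunit. Psmb5 ranked 2 of 43 by exon length and 7 by longest transcript. Base ATPases ran from 461.2 per kb (Psmc2) to 2496 (Psmc5), the other base subunits from 445.9 (Psmd1) to 1389 (Psmd2), and the lid from 271.5 (Psmd11) to 1129 (Psmd7). The assembly chaperones of the regulatory particle were lower, from 90.36 per kb for Psmd9 to 190.6 for Psmd10.

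Each immunoproteasome subunit was set against the constitutive subunit it replaces. Psmb8 stood at 0.943 ± 0.196% of Psmb5 per kb of exon (mean ± SD, n = 60) and Psmb9 at 0.538 ± 0.172% of Psmb6. Psmb10, in contrast, stood at 40.9 ± 3.78% of Psmb7, so the 3 inducible subunits were not expressed at one level. By the longest transcript the same ratios were 1.67%, 0.352% and 44.3%. Among the activators, Psme3 (the nuclear PA28-gamma cap) was at 966.8 per kb, and Psme1 (PA28-alpha), Psme4 (PA200) and Psme2 (PA28-beta) followed at 306, 237.2 and 148.8. Psma8, the testis-specific alpha subunit, and Psmb11, the beta subunit of the thymus, were at 3.234 and 1.3 per kb, and Psmb11 was listed at 0 in 4 libraries.

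**Figure D1:**
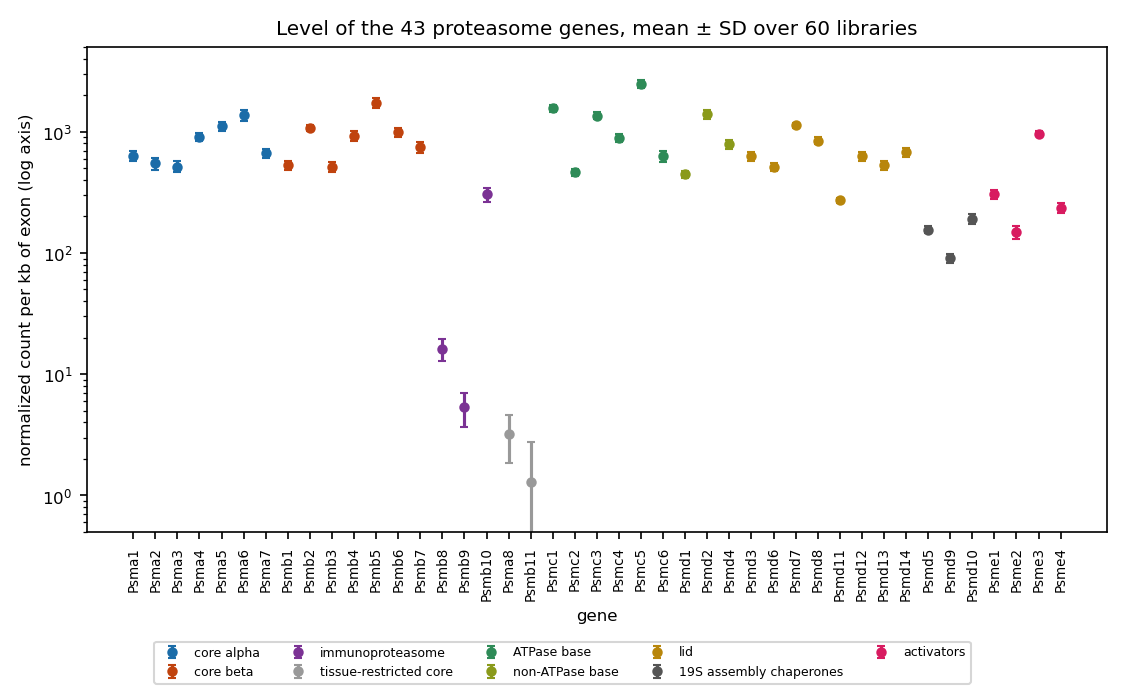
Mean level (points) and SD (bars) over 60 libraries of the 43 proteasome genes, in normalized counts per kb of exon on a log axis, coloured by role. Constitutive subunits lie between 271.5 and 2496 per kb and Psmb8, Psmb9, Psma8 and Psmb11 below 20; the SD of Psmb11 exceeds its mean, so its lower bar runs off the axis.

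Promoter windows were available for 36 of the 43 genes from RefSeq (GRCm38.p6; 250 bases before to 50 after each start, 39 windows). Psmb1, Psmb2 and Psmb7 had no window, so the sequences below lie upstream of the only 4 core beta genes with a window. These 4 also had the smallest p of the core beta genes under fluoxetine. The sequences were picked after the values of these genes were seen. They are shown because these genes moved together in the comparison that follows. Those of Psmb3, Psmb4 and Psmb5 are cut short before the first annotated transcript, and that of Psmb6 is printed at its full 250 bases. Capitals mark matches to the motifs listed after them, whose positions count from the RefSeq start and not from the printed end.
Psmb3, chr11:97703184-97703398, plus strand: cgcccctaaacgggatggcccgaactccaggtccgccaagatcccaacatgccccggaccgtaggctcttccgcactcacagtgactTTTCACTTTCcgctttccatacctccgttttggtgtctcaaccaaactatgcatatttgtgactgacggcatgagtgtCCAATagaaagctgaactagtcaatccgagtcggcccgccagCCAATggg
Psmb4, chr3:94886962-94887208, minus strand: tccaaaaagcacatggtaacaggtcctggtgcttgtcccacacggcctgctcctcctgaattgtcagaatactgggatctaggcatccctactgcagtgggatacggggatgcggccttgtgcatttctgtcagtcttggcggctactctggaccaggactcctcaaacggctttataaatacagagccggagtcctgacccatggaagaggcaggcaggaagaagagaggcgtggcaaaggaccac
Psmb5, chr14:54618023-54618245, minus strand: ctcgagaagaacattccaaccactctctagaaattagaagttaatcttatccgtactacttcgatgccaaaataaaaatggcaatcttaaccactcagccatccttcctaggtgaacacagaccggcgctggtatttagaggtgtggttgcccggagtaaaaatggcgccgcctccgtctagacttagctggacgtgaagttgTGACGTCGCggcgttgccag
Psmb6, chr11:70525107-70525356, plus strand: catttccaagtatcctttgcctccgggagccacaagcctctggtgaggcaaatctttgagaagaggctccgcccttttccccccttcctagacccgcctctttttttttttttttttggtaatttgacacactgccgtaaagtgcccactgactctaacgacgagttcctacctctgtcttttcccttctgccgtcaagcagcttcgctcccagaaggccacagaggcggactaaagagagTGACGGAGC

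Both strands were searched for 4 motifs. TGACNNNGC, the core of the antioxidant response element that Nfe2l1 and Nfe2l2 bind with small Maf proteins, was in 6 of 39 proteasome windows (15.4%) and in 12.4% of all 32851 windows. Psmb5 held it as TGACGTCGC, with its first base 47 before the start, and Psmb6 as TGACGGAGC, 9 before the start. CCAAT, the box bound by NF-Y, was in 14 of 39 windows (35.9%; all windows 37.4%) and in 5 of the 8 core alpha windows; Psmb3 held it at 85 and 43 bases before its start. TTCNNNGAA, the STAT site, was in 5.13% of proteasome windows and 8.3% of all, and the interferon response core (GAAA, any 2 bases, GAAA) in 10.3% and 3.44%. Psmb3 held the last one on its minus strand, printed as TTTCACTTTC from 163 bases before the start, and Psmb4 held none of the 4. A match is a string of letters and shows no binding.

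Fluoxetine against vehicle showed the broadest change, and the share of genes called was largest in core beta (6 of 7). Averaged over genotypes and sexes, 14 of the 43 genes fell and 2 rose (32.6% and 4.65%; of all genes tested, 7.78% fell and 6.71% rose). Core beta subunits made up 6 of the 14. Psmb3 fell by 10.5%, Psmb4 fell by 9.97% and Psmb5 fell by 9.77%. The median log2 fold change was -0.063 for the 43 genes and -0.003 for all genes, and 33 of 43 values were negative (76.7%; all genes 51.3%).

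Among the core beta subunits, Psmb3 held 997.8 to 1326 normalized counts in the 20 vehicle libraries (median 1225) and 955.4 to 1448 in the 20 fluoxetine libraries (median 1053). Its log2 fold change was -0.16 ± 0.03 (limma adjusted p = 0.00028), and 19 of 20 fluoxetine libraries lay below the mean of their vehicle group. Psmb5 ran from 1246 through 1601 to 1785 under vehicle and from 1195 through 1420 to 1982 under fluoxetine (-0.15 ± 0.03, limma adjusted p = 0.00074, 18 of 20 libraries below). In both genes the ranges overlapped, and the highest fluoxetine value, 1448 for Psmb3 and 1982 for Psmb5, was that of WT fluoxetine male replicate 2. Psmb4, a subunit without an active site, fell from a median of 1893 to 1660 (-0.15 ± 0.04, adjusted p = 0.0029, 19 of 20), the caspase-like Psmb6 from 1947 to 1785 (-0.12 ± 0.03, adjusted p = 0.0075, 18 of 20) and the trypsin-like Psmb7 from 2592 to 2335 (-0.13 ± 0.04, adjusted p = 0.011, 19 of 20). Psmb1 also fell. Psmb2 was the only core beta subunit not called (0.02 ± 0.03, adjusted p = 0.69, chosen after its value was seen), with 95% limits of -0.03 to 0.08 on the log2 scale.

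**Figure D2:**
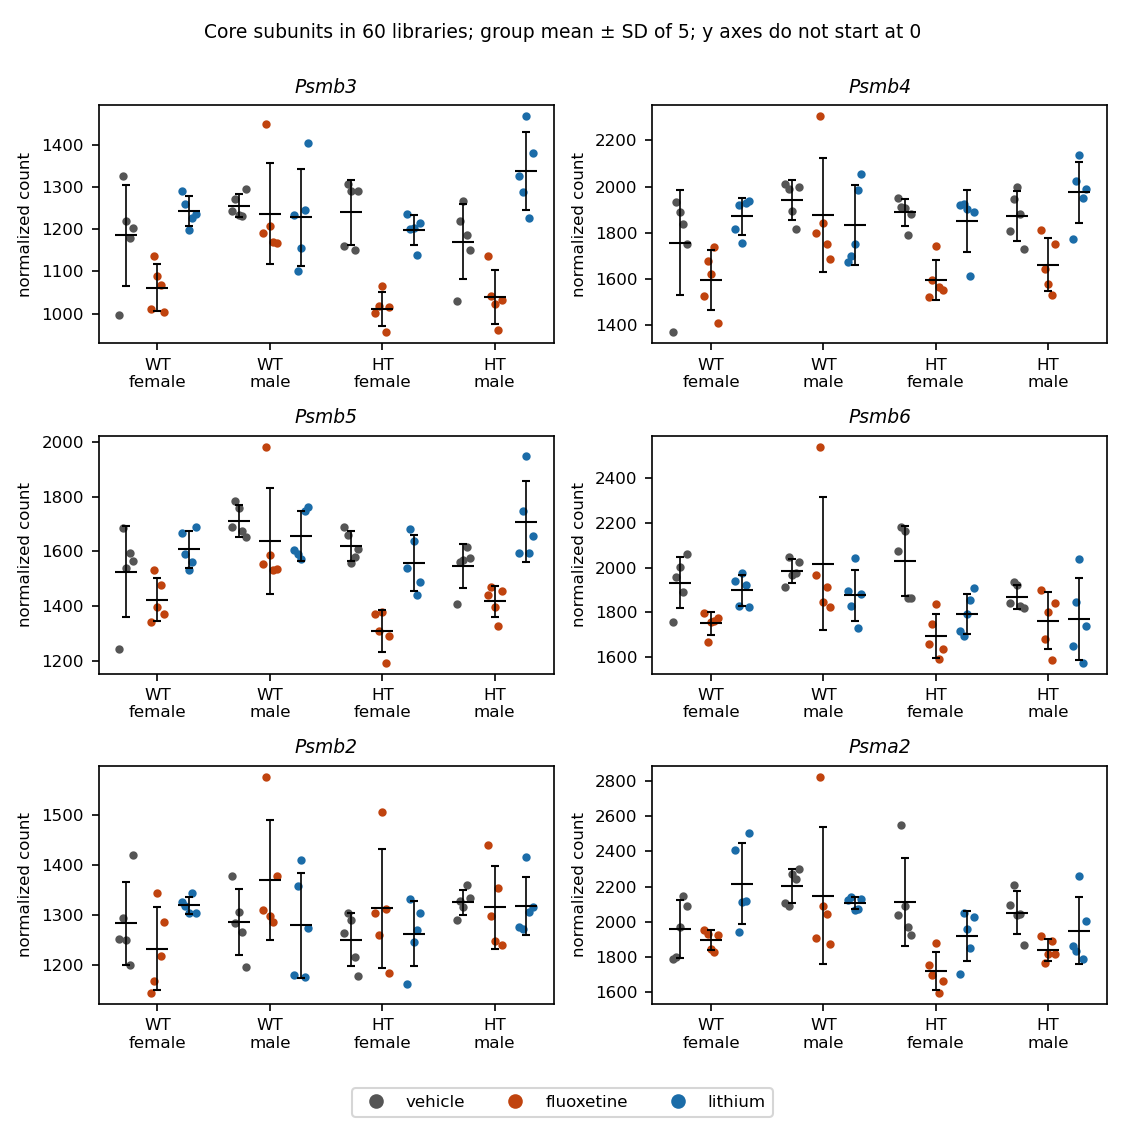
Normalized counts of Psmb3, Psmb4, Psmb5, Psmb6, Psmb2 and Psma2 in each of the 60 libraries (points), by genotype, sex and treatment (colour), with group means ± SD of 5; axes do not start at 0. Fluoxetine values of Psmb3 and Psmb5 lie lowest in females labelled HT, and 1 WT fluoxetine male library (1448 for Psmb3, 1982 for Psmb5) lies above the others of its group.

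Of the 7 core alpha subunits, 2 fell under fluoxetine: Psma2 by -0.14 ± 0.04 on the log2 scale (limma adjusted p = 0.011, 19 of 20 libraries below) and Psma5 by -0.13 ± 0.04 (adjusted p = 0.011, 18 of 20). The other 5 were not called, and the median of the 7 was -0.077. Among the 3 immunoproteasome subunits, Psmb10 fell (-0.16 ± 0.05, adjusted p = 0.013, 18 of 20), whereas Psmb8 and Psmb9, both of low counts, were at -0.14 ± 0.09 and -0.18 ± 0.13 and did not pass (Psmb9 was at 0.26 with depth as a covariate). The regulatory particle moved less. In the base, Psmd2 (-0.11 ± 0.03, adjusted p = 0.016), a scaffold and ubiquitin receptor, and the ATPase Psmc4 (-0.08 ± 0.03, adjusted p = 0.042) fell while the ATPase Psmc6 rose (0.13 ± 0.04, adjusted p = 0.035). Of the 8 lid subunits 1 fell, Psmd13 (-0.12 ± 0.03, adjusted p = 0.0077, 18 of 20), and their median was -0.007. The deubiquitinase Psmd14, whose 12 group means ran from 1805 to 2047 normalized counts, was at -0.01 ± 0.04, and the ubiquitin receptor Psmd4, with group means of 2053 to 2357, at -0.06 ± 0.04.

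The activators split. Psme3 rose (0.07 ± 0.02, limma adjusted p = 0.021, 15 of 20 libraries above) and Psme2 fell (-0.16 ± 0.05, adjusted p = 0.041, 17 of 20), while Psme1 (-0.02 ± 0.03) and Psme4 (-0.02 ± 0.04) were not called, and Psme4 was positive under 3 alternatives and without HT vehicle male replicate 1 (0.0009 to 0.0477). The chaperone Psmd9 fell (-0.10 ± 0.03, adjusted p = 0.032). Calls close to the threshold rested on single libraries: leaving out any 1 of 23 libraries ended the call of Psmc4, any 1 of 21 that of Psme2, any 1 of 13 that of Psmc6 and any 1 of 7 that of Psmd9.

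Depth and the length slope moved with fluoxetine. The slope averaged -0.00189 ± 0.019 under vehicle and 0.0171 ± 0.0471 under fluoxetine (SD, n = 20 each), and 0.0269 ± 0.017 over 19 fluoxetine libraries without WT fluoxetine male replicate 2. A higher slope means that genes of short total exon length read lower. The GC slope averaged 0.145 ± 0.75 under vehicle (0.29 without HT vehicle male replicate 1) and -0.27 ± 0.674 under fluoxetine. By another measure of length than the slope uses, the median longest transcript was 1183 bases for core beta genes, 1239 for core alpha genes and 3181 for all genes tested. With length and GC slopes as covariates the number of the 43 genes called went from 16 to 6, of which 5 were core beta subunits (Psmb1, Psmb3, Psmb4, Psmb5 and Psmb7). With depth as a covariate the number called went to 8, all lower, while 2.03% of all genes were called lower. Of the 8, 4 were core beta subunits (Psmb3, Psmb4, Psmb5 and Psmb6). The fitted differences were larger in that fit: the median went from -0.128 to -0.203 for core beta and from -0.063 to -0.113 for the 43 genes. Depths of vehicle and fluoxetine libraries did not overlap, so drug and depth cannot be told apart by this fit. Psmb3, Psmb4, Psmb5 and Psma2 were called under every alternative tried and after the removal of each library in turn. Of the cell markers, 2 of 6 excitatory neuron genes rose (Neurod6 among them), 1 of 6 interneuron genes fell (Slc32a1), 1 of 7 microglial and 1 of 6 endothelial genes rose (P2ry12 and Flt1), and none of the oligodendrocyte, astrocyte, striatal or olfactory bulb markers was called. Summed interneuron markers ran from 19030 to 28660 under vehicle and 18750 to 27020 under fluoxetine, and no marker was at 0. The interneuron score (the mean centred log2 level of its markers) averaged 0.0244 ± 0.0723 under vehicle and -0.0911 ± 0.071 under fluoxetine. That of excitatory neurons averaged -0.0355 ± 0.128 and 0.0908 ± 0.138 (SD, n = 20 each). With the striatal and olfactory bulb scores as covariates 14 of the 43 genes fell and 1 rose, against 9.31% and 7.47% of all genes. Core beta subunits made up 6 of those that fell. The part of the other markers was not tested.

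Within genotypes, fluoxetine calls came from the libraries labelled HT. In the average over sexes 10 genes fell and 1 rose there (23.3% lower and 2.33% higher; of all genes tested, 5.54% and 4.7%), with 6 of 7 core beta subunits among those that fell. Psmb3 ran from 1030 through a median of 1203 to 1307 in the 10 vehicle libraries labelled HT and from 955.4 through 1021 to 1137 in the 10 fluoxetine ones, a fall of 14.8% (-0.23 ± 0.04, limma adjusted p = 0.0005, 10 of 10 libraries below). Psmb5 ran from 1408 through 1578 to 1689 and from 1195 through 1377 to 1469 (-0.21 ± 0.04, adjusted p = 0.0011, 10 of 10). Psmb4 (-0.21 ± 0.05, adjusted p = 0.006), Psma2 (-0.22 ± 0.05, adjusted p = 0.0048), Psmd13 (-0.18 ± 0.05, adjusted p = 0.0076) and Psmd2 (-0.18 ± 0.05, adjusted p = 0.01) also fell in 10 of 10 libraries. Psmd9 fell (-0.13 ± 0.05, adjusted p = 0.046) and Psme3 rose (0.10 ± 0.03, adjusted p = 0.027). With the slope covariates 7 genes were called, all lower, in place of 11 (3.81% of all genes lower).

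Among libraries labelled HT split by sex, the fluoxetine calls were in females. There 8 genes fell and none rose (18.6%; 3.93% of all genes fell). Psmb5 was at 1689, 1661, 1558, 1581 and 1608 normalized counts in the 5 vehicle libraries and at 1373, 1312, 1381, 1195 and 1293 in the 5 fluoxetine libraries (-0.31 ± 0.06, limma adjusted p = 0.0023). Psmb3 was at 1160, 1307, 1290, 1150 and 1290 and at 1001, 1019, 1065, 955.4 and 1015 (-0.29 ± 0.06, adjusted p = 0.0029). In both genes every fluoxetine value lay below every vehicle value, and how many of all genes did so was not counted. Psmb6 (-0.26 ± 0.06, adjusted p = 0.0086), Psma2 (-0.29 ± 0.08, adjusted p = 0.013), Psmb4 (-0.24 ± 0.07, adjusted p = 0.03) and Psmb7 (-0.24 ± 0.07, adjusted p = 0.03) also fell. Psmd13 (-0.21) and Psmb1 (-0.22) were the other calls. The count fell to 3 without HT fluoxetine female replicate 4 and to 4 without its replicate 5 or HT vehicle female replicate 3. It fell to 5 without HT vehicle female replicate 1 or 5, and to 3 with the slope covariates (1.24% of all genes lower).

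Males labelled HT had no call under fluoxetine by limma (0 of 43; 0.595% of all genes; 7 of 43 at an unadjusted p under 0.05). The smallest p-values were those of Psmb3 (-0.17, limma adjusted p = 0.22), Psmd2 (-0.18, adjusted p = 0.23) and Psme3 (0.10, adjusted p = 0.28). Without the pair of libraries that stood apart, 2 genes were called. DESeq2 and edgeR on recovered reads each called 0.

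WT libraries had no call under fluoxetine either (0 of 43 in the average over sexes; 0.208% of all genes; 4 of 43 at an unadjusted p under 0.05; 0 called by DESeq2 and by edgeR). Psmb10 ran from 419.6 through 565.5 to 606.9 in the 10 WT vehicle libraries and from 398.8 through 455.6 to 674.2 in the 10 fluoxetine libraries (-0.20 ± 0.06, limma adjusted p = 0.2), and Psma5 and Psmc4 followed (-0.14 and -0.08, adjusted p = 0.27 and 0.44). Psmb3 ran from 997.8 through 1232 to 1326 and from 1005 through 1152 to 1448, and Psmb5 from 1246 through 1663 to 1785 and from 1343 through 1532 to 1982, and in both the groups overlapped. Without WT fluoxetine male replicate 2, 3 genes were called in WT. The difference between the genotypes was tested directly: no gene of the 43 was called (0.0% of all genes; 0 by DESeq2 and by edgeR), and 3 had an unadjusted p under 0.05 in limma, Psma2 (-0.18), Psmb3 (-0.14) and Psmb5 (-0.13), each with an adjusted p of 1.0. For Psmb5 the 95% limits of that difference were -0.26 to -0.01.

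**Figure D3:**
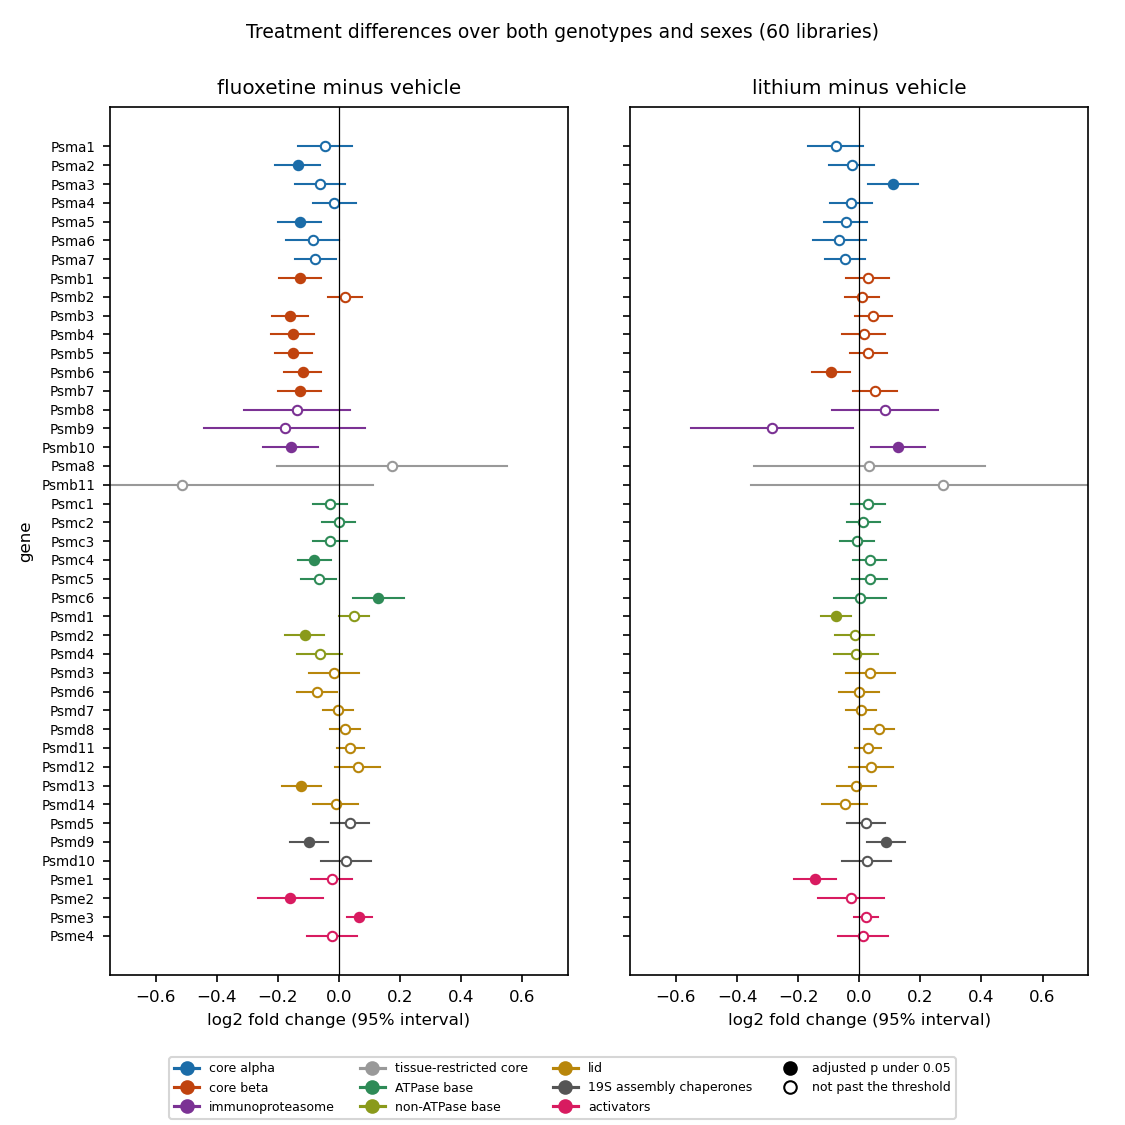
Log2 fold change of each of the 43 genes for fluoxetine and for lithium against vehicle, averaged over genotypes and sexes, with 95% intervals; genes are grouped by role and filled points passed the adjusted threshold. Core beta subunits other than Psmb2 lie left of 0 under fluoxetine and scatter around 0 under lithium, and the intervals of Psmb11 run past the axis limits.

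Lithium against vehicle moved fewer of these genes, in both directions. Averaged over genotypes and sexes 3 rose and 3 fell (6.98% each way; 11.4% of all genes rose and 11.2% fell), with a median log2 fold change of 0.013. Psme1, which with Psme2 forms the interferon-inducible PA28 cap, fell: it ran from 627.8 through a median of 701.5 to 766.5 normalized counts under vehicle and from 500.9 through 644 to 720.8 under lithium (-0.14 ± 0.03, limma adjusted p = 0.0016, 16 of 20 libraries below). That call held under every alternative and every removal of 1 library. Psmd1, the largest base subunit, fell from a median of 3262 to 3088 (-0.08 ± 0.03, adjusted p = 0.022) and Psmb6 from 1947 to 1839 (-0.09 ± 0.03, adjusted p = 0.027). Psmb10 (0.13 ± 0.05, adjusted p = 0.035), Psmd9 (0.09 ± 0.03, adjusted p = 0.042) and Psma3 (0.11 ± 0.04, adjusted p = 0.045) rose. The last 3 rested on single libraries, since leaving out any 1 of 10, 16 and 23 libraries ended the respective call. The count fell to 3 without HT lithium male replicate 3 or WT vehicle female replicate 4, to 2 with depth as a covariate and to 3 with the striatal and olfactory bulb scores. The even split did not hold with the length and GC slopes as covariates, where 8 genes fell and 0 rose and the median was -0.010 (12.97% of all genes fell).

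Beside these calls, oligodendrocyte markers fell in 5 of 6 and striatal markers in 5 of 8 genes under lithium. The summed oligodendrocyte level ran from 68360 to 181000 normalized counts under vehicle and from 52440 to 171700 under lithium, and the striatal sum from 5528 to 19400 and from 6043 to 8639. Interneuron and microglial markers rose in 2 of 6 and 2 of 7 genes, 1 of 6 astrocyte genes rose, 1 of 6 endothelial genes fell, and excitatory neuron and olfactory bulb markers had no call. With the striatal and olfactory bulb scores as covariates the calls of Psmd1, Psmb6, Psmb10 and Psma3 ended. The part of the other markers was not tested.

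In libraries labelled HT, 3 genes fell under lithium and none rose (6.98%; 7.14% of all genes fell), namely Psme1, Psmd1 and Psmb6. Psme1 ran from 627.8 through 711.2 to 766.5 in the 10 vehicle libraries and from 500.9 through 627 to 720.8 in the 10 lithium libraries (-0.19 ± 0.05, limma adjusted p = 0.0062, 9 of 10). In the females among them Psme1 was at 689.6, 718.5, 766.5, 739.1 and 731.8 under vehicle and at 558.3, 500.9, 577.1, 602.1 and 689.3 under lithium (-0.32 ± 0.07, adjusted p = 0.0086). The groups barely missed overlap (689.6 against 689.3), and how many of all genes did not overlap was not counted. Psme1 was the only call in females (2.33% lower; 0.534% of all genes) and was lost without HT lithium female replicate 2. Psmd1 (-0.12 ± 0.04, adjusted p = 0.018) and Psmb6 (-0.13 ± 0.04, adjusted p = 0.04) both lost their calls without HT vehicle female replicate 2, which left 1. Leaving out any 1 of 11 libraries ended the call of Psmb6. Both calls also ended with the striatal and olfactory bulb scores as covariates and in a fit of only the groups compared. With the slope covariates 8 genes were called, all lower (10.12% of all genes lower).

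In males labelled HT, Psmd1 fell under lithium (-0.20 ± 0.05, limma adjusted p = 0.006) and Psmb3 (0.19 ± 0.06, adjusted p = 0.029) and Psmd9 (0.19 ± 0.06, adjusted p = 0.043) rose, against 6.58% of all genes that fell and 6.61% that rose. Psmb3 was at 1030, 1220, 1266, 1186 and 1150 under vehicle and at 1325, 1288, 1467, 1227 and 1380 under lithium, and the values overlapped. Leaving out HT vehicle male replicate 1, the lowest of these, or HT lithium male replicate 5 left 1 call. All 3 calls ended with the striatal and olfactory bulb scores as covariates, and those of Psmb3 and Psmd9 also with depth and with the slopes. Among these males the mean striatal score was 1.1 ± 0.92 under vehicle and -0.254 ± 0.183 under lithium (SD, n = 5). WT libraries had no lithium call by limma (0 of 43; 4.57% of all genes; 3 at an unadjusted p under 0.05; 0 called by DESeq2 and by edgeR): Psmd8 was at 0.08 (adjusted p = 0.23), Psme1 at -0.10 (adjusted p = 0.26) and Psmd9 at 0.09 (adjusted p = 0.26). The lithium response did not differ by genotype at the threshold for any of the 43 genes (0.0% of all genes by limma; 1 at an unadjusted p under 0.05; 0 by DESeq2 and by edgeR). The smallest p-values were those of Psma2 (-0.16, adjusted p = 0.88) and Psmd14 (-0.14, adjusted p = 0.9).

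Fluoxetine and lithium were also set directly against each other. In libraries labelled HT, 11 genes were lower and 3 higher under fluoxetine than under lithium (25.6% and 6.98%; of all genes, 12.6% and 12.2%), with 5 of 7 core beta subunits and none of 7 core alpha subunits among them, and in WT 5 were lower (11.6%; 5.41% of all). Psmb3 had the smallest p in libraries labelled HT (-0.30 ± 0.04, limma adjusted p = 1.1e-06), with 955.4 to 1137 normalized counts under fluoxetine and 1138 to 1467 under lithium. The 10 values of each thus barely missed overlap, and how many of all genes did not overlap was not counted. Psmb5 (-0.26 ± 0.04, adjusted p = 1.9e-05) followed, with 1195 to 1469 against 1440 to 1948. Psmd9 (-0.22), Psmb4 (-0.23) and Psmb10 (-0.26) were lower as well and Psmd1 (0.15), Psmc6 (0.17) and Psme1 (0.14) higher. In WT, Psmb10 had the smallest p (-0.31 ± 0.06, adjusted p = 0.0016), then Psma3 (-0.21), Psmd9 (-0.15), Psmb1 (-0.16) and Psmb7 (-0.16). Without WT fluoxetine male replicate 2 the WT count rose to 15. It was also 15, all lower, without the pair of libraries that stood apart (8.88% of all genes lower). Without WT lithium male replicate 4 the WT count fell to 2. In libraries labelled HT the count was 9 without HT fluoxetine female replicate 4. With the length and GC slopes as covariates 6 genes were lower and 3 higher in libraries labelled HT (11.13% and 11.03% of all genes). The median turned from -0.032 to 0.018, and the calls of Psmb10 and Psmc6 ended. In WT the same fit left 1 lower and 1 higher (5.94% and 4.62% of all genes), with the median turned from -0.053 to 0.009. It ended the calls of Psma3, Psmd9, Psmb1 and Psmb7.

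**Figure D4:**
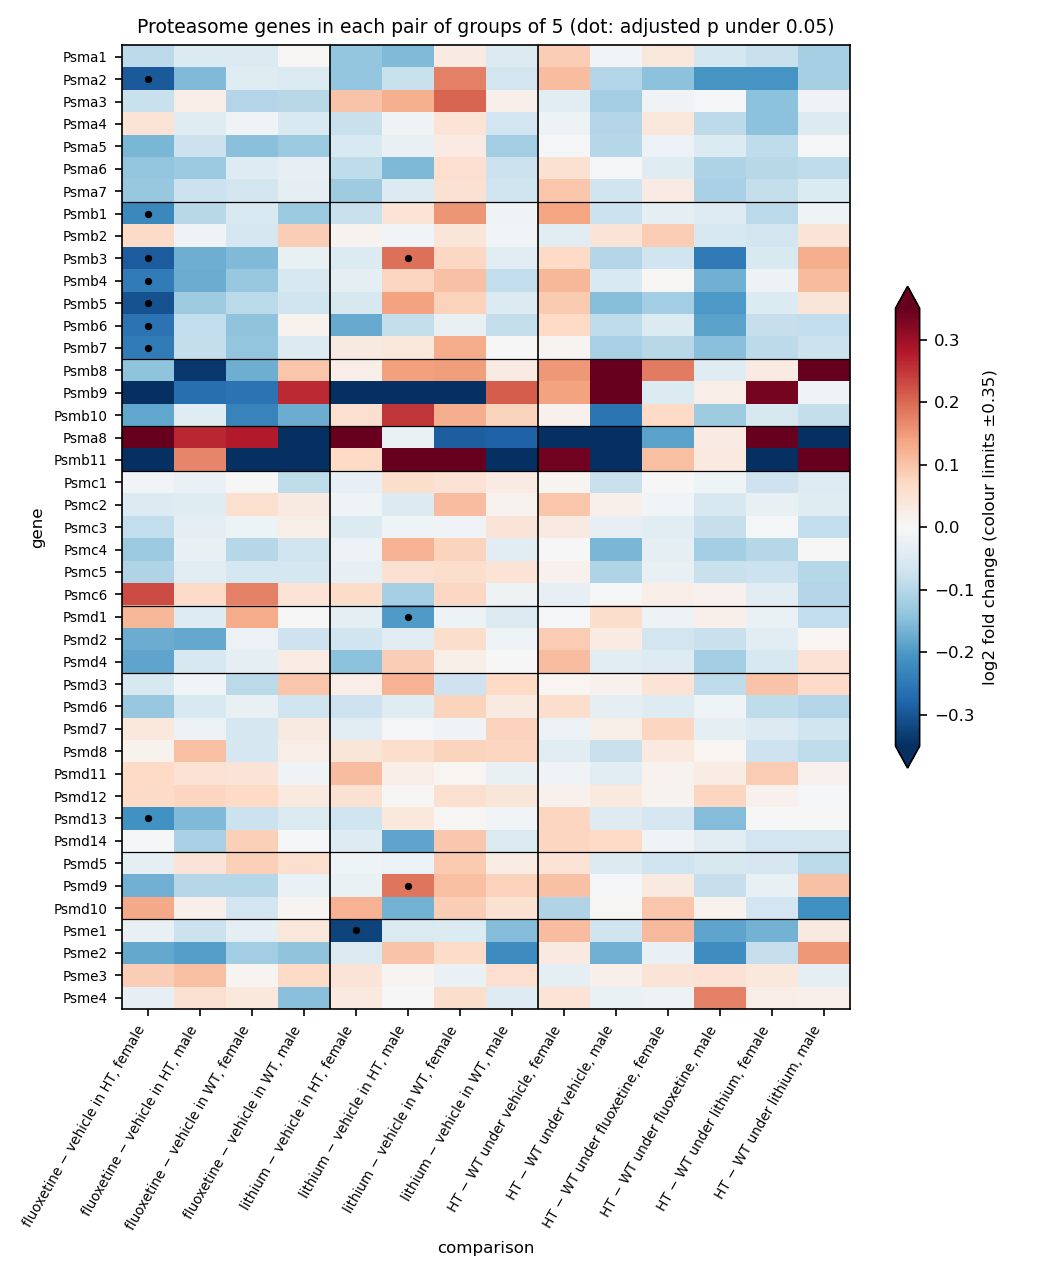
Log2 fold change of each of the 43 genes between pairs of the 12 groups. Columns show each drug against vehicle within genotype and sex, and HT against WT within treatment and sex. Dots mark a limma adjusted p under 0.05, and colours saturate beyond 0.35 in either direction. In the columns of fluoxetine against vehicle, dots lie only in females labelled HT, at Psma2, Psmb1, Psmb3 to Psmb7 and Psmd13.

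Genotype itself was linked to little change in these genes. Within vehicle no gene of the 43 differed between libraries labelled HT and WT by limma (0.152% of all genes; 3 at an unadjusted p under 0.05), and the smallest p-values were those of Psmb8 (0.27, adjusted p = 0.52) and Psma8 (-0.59, adjusted p = 0.53). Under fluoxetine (0.135% of all genes; 6 unadjusted) Psmb3 and Psmb5 were each at -0.16 with an adjusted p of 0.096, and under lithium (0.573%; 6 unadjusted) Psma2 was at -0.16 (adjusted p = 0.15), Psmd10 at -0.14 and Psmd8 at -0.08. DESeq2 called 0, 2 and 0 of the 43 genes in these comparisons under vehicle, fluoxetine and lithium, and edgeR called 0 in each. Averaged over all treatments and sexes, Psma2 was lower in libraries labelled HT (-0.11 ± 0.03, adjusted p = 0.024, 24 of 30 libraries below), the only call (2.33% lower; 2.53% of all genes). Psma2 ran from 1595 through a median of 1906 to 2550 in libraries labelled HT and from 1789 through 2089 to 2825 in WT, and its call ended with the slope covariates. Psmb8 was at 0.20 ± 0.07 (adjusted p = 0.085), Psmb7 at -0.09 ± 0.03 (0.076) and Psmb6 at -0.07 ± 0.03 (0.098), and 33 of the 43 values were negative with a median of -0.029 (76.7%; all genes 48.5%). With the slope covariates the median was 0.009. Without WT vehicle female replicate 1 the count was 4, and without HT lithium male replicate 3 it was 3.

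Between the sexes 1 gene of the 43 was called: Psmb5 was higher in males (0.10 ± 0.03, limma adjusted p = 0.04, 22 of 30 male libraries above; 2.33% of the 43 and 0.769% of all genes higher). It ran from 1327 through 1592 to 1982 in males and from 1195 through 1541 to 1689 in females. Leaving out any 1 of 25 libraries ended the call, the slope and marker score covariates ended it too, and without HT vehicle male replicate 1 there were 5 calls. Psmb1 (0.09, adjusted p = 0.097) and Psmd13 (0.08, adjusted p = 0.1) came next. No response to either drug differed by sex at the threshold of limma (0.0112% of all genes for each drug, with 3 of the 43 genes for fluoxetine and 0 for lithium at an unadjusted p under 0.05), nor by DESeq2 or edgeR. Under fluoxetine the smallest p-values were those of Psmd1 (male minus female -0.15, adjusted p = 0.26) and Psmb6 (0.16, adjusted p = 0.3).

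The immunoproteasome and PA28 genes were not called as a unit. Under fluoxetine the median log2 fold change of the 3 immunoproteasome genes was -0.158, and only Psmb10 was called. The calls therefore do not show that their responses differed. Psmb8 group means ran from 45.59 ± 3.68 normalized counts in WT vehicle males to 67.15 ± 11.1 in HT lithium males (SD, n = 5), and Psmb9 group means from 15.51 ± 5.7 in WT lithium females to 26.11 ± 7.01 in HT vehicle females. At such counts the spread within a group was wide, and for Psmb9 a difference between 20 and 20 libraries had an SE of 0.13 on the log2 scale. Psmb10, the abundant member, ran from 433.0 ± 30.0 in WT fluoxetine females to 608.1 ± 68.3 in WT lithium males; it was lower under fluoxetine and higher under lithium than under vehicle, as given above. As a percentage of Psmb7 its group means stayed between 37.76 ± 3.06 and 44.61 ± 4.52. Psme1 fell under lithium and Psme2 fell under fluoxetine, and the partner gene was not called in either case. The 3 immunoproteasome genes had a median pairwise correlation of 0.129 across libraries after group means were taken out, and Psme1 with Psme2 had 0.209. Low counts of Psmb8 and Psmb9 limit such correlations.

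**Figure D5:**
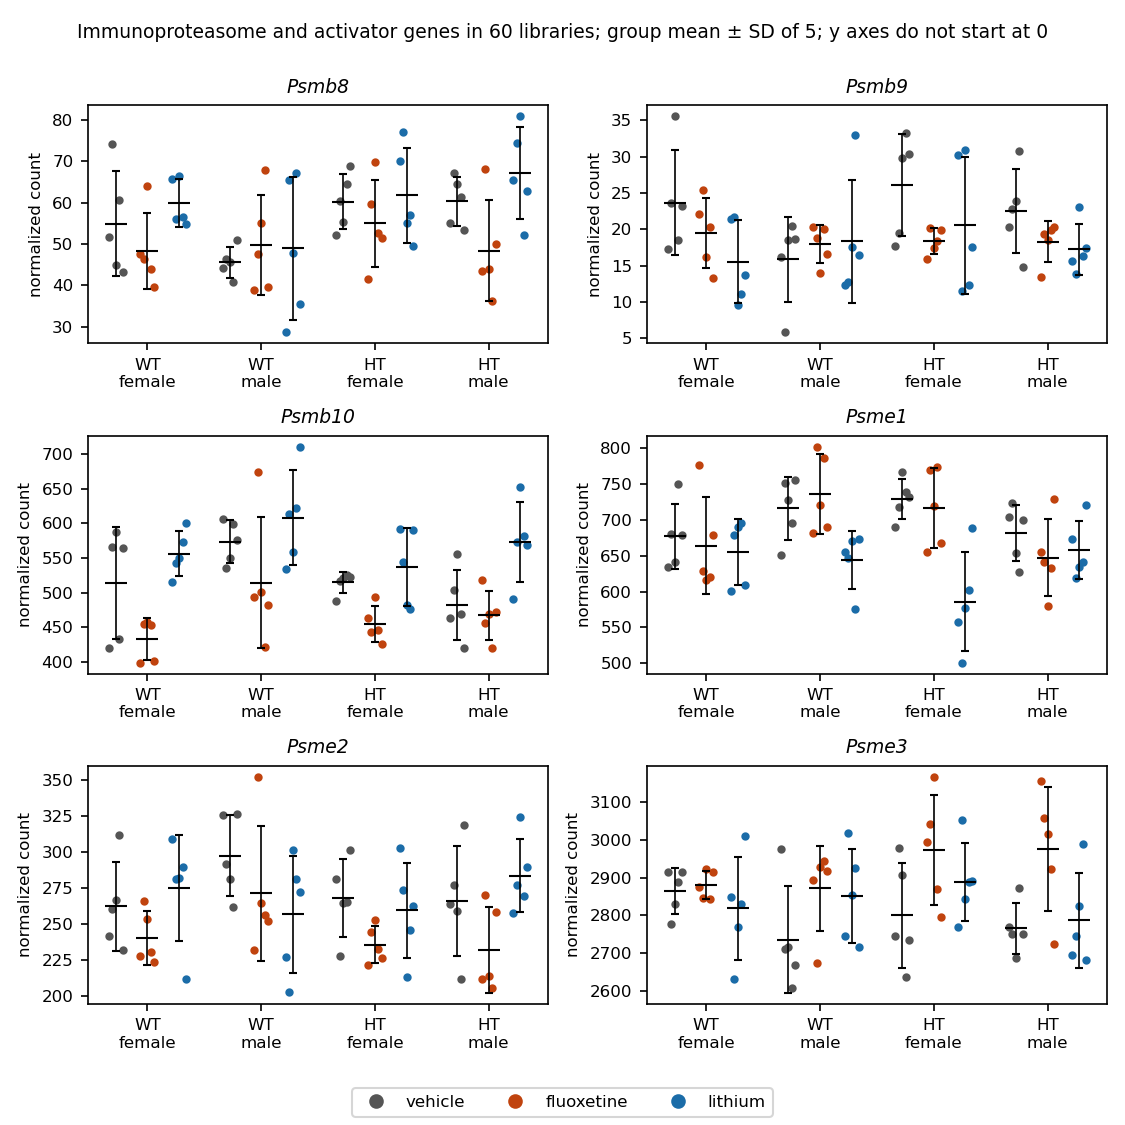
Normalized counts of Psmb8, Psmb9, Psmb10, Psme1, Psme2 and Psme3 in each of the 60 libraries (points), by genotype, sex and treatment (colour), with group means ± SD of 5; axes do not start at 0. Psme1 reaches its lowest values (from 500.9) in HT lithium females, and Psmb8 in WT vehicle males (40.81 to 50.96) lies below Psmb8 in vehicle males labelled HT (53.41 to 67.2). Psmb8 was not called between these males, where 0 of the 43 genes were called. How many of all genes separate in this way was not counted.

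Genes that build, regulate and feed the proteasome were followed as companion lists, whose counts stand against 6.71% of all genes that rose and 7.78% that fell under fluoxetine and 11.4% and 11.2% under lithium. Of 5 chaperones that assemble the 20S core, 2 fell under fluoxetine: Psmg3 (-0.25, limma adjusted p = 0.00025) and Pomp (-0.13, adjusted p = 0.037), and under lithium Psmg3 rose (0.13, adjusted p = 0.035). The lithium call of Psmg3 ended on removing any 1 of 9 libraries and with depth, the slopes or the tissue marker scores as covariates, and the fluoxetine call of Pomp ended on removing any 1 of 15. Among 10 partners outside the naming rule, Akirin2, which carries proteasomes into the nucleus, rose under fluoxetine (0.14, adjusted p = 0.0027) and lithium (0.13), the thioredoxin-like Txnl1 rose under fluoxetine (0.12, adjusted p = 0.013), and the inhibitor Psmf1 fell under both drugs (-0.08 and -0.10). Uchl5, a deubiquitinase of the regulatory particle, was lower in libraries labelled HT (-0.16, adjusted p = 0.0083), a call that ended with the slope covariates. Neither Nfe2l1, the factor that induces proteasome genes when activity is short, nor Nfe2l2 was called under fluoxetine, where 1 of 11 regulators changed, the small Maf gene Maff (0.55, adjusted p = 0.002). Under lithium 5 of 11 regulators rose and 1 fell, with Syvn1 (an endoplasmic reticulum ubiquitin ligase, 0.18, adjusted p = 0.00052), Maff (0.47, adjusted p = 0.0045) and Mafg (0.11, adjusted p = 0.015) up and Nfyb (-0.14, adjusted p = 0.002) down.

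Of 14 ubiquitin genes and shuttles, 4 rose and 2 fell under fluoxetine. Rps27a, which encodes ubiquitin fused to a ribosomal protein, fell (-0.26, limma adjusted p = 9.4e-05), and the shuttle receptors Ubqln1 (0.10), Ubqln2 (0.13) and Rad23b (0.09) rose. Under lithium Ufd1 (-0.12) fell and its partner Nploc4 (0.08) rose. Of 19 interferon and antigen presentation genes 4 fell under fluoxetine, namely H2-D1 (-0.20), Nlrc5 (-0.44), Stat2 (-0.10) and H2-K1 (-0.19), and 1 rose under lithium, B2m (0.23, adjusted p = 0.00021). Ifit1 and Irf7 were higher in libraries labelled HT (0.31 each, adjusted p = 0.0086 and 0.0094), while none of the immunoproteasome subunits was called there. As a comparison among short, highly expressed genes, 15 of 22 nuclear oxidative phosphorylation genes fell under fluoxetine (median -0.135) and 8 rose under lithium (median 0.082). With depth as a covariate the fluoxetine calls of Akirin2, Txnl1, Maff, Ubqln1, Ubqln2, Rad23b, Stat2, Nlrc5, Pomp, Psmf1 and the H2 genes ended, while those of Psmg3, Rps27a and Ndufa4 held.

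Within groups, subunits of the same particle rose and fell together from library to library. After each group mean was removed, the median Pearson correlation over the 60 libraries was 0.54 among the 21 pairs of core alpha genes, 0.525 among core beta, 0.509 among base ATPases and 0.536 among lid genes, against -0.001 for pairs of all genes tested. Core beta genes correlated with the other subunits of the 26S particle at a median of 0.485. Pooled, the immunoproteasome genes (0.125), the activators (0.009) and the chaperones (0.289) followed the 26S subunits less, and Psme4 had the lowest value, -0.27. The immunoproteasome genes split: Psmb10 was at 0.43, as high as the core beta gene Psmb4 (0.43). The low-count Psmb8 and Psmb9 were at 0.089 and -0.038. With the length and GC slopes taken out, Psmb10 was at 0.164 and Psmb4 at 0.168. These points share a library, its depth and its base composition: with the length and GC slopes taken out, a choice made after seeing the data, the medians were 0.342 for core alpha, 0.243 for core beta, 0.495 for base ATPases and 0.388 for lid genes, and without the pair of libraries that stood apart core beta was at 0.412. The values are descriptions across genes, which are not independent replicates.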

How the data were processed

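Libraries were made from poly(A) RNA, and the kit kept strand, per the labels' protocols. The authors deposited 1 table of signal values, DESeq2 normalized counts (reads divided by 1 size factor per library). Salmon 0.11.2, R 3.6.0, DESeq2 1.19.11 and the build GRCm38 were used, per the submitters' processing notes. Annotation, strand setting and gene filter are not given in the sources used here. Whole reads were recovered (100% of values within 0.01 of a whole number), 25.1 to 36.6 M per library.

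Here limma-trend 3.58.1 in R 4.3.3 was fitted to log2(normalized count + 1) with 12 group means over 60 libraries (48 residual degrees of freedom). A gene was tested (17804 of 18088) where 5 or more libraries reached 10 normalized counts, and p-values (two-sided) were adjusted by Benjamini-Hochberg within each of 32 comparisons. The median SE was 0.105 between groups of 5. The fitting steps were tested on simulated data. Levels per kb used GENCODE exon lengths, and promoters came from RefSeq.

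The genes, lists and tests were chosen with earlier results of these data known. Named genes are the catalytic pairs, Psmd4, Psmd14, the activators, the highest and lowest member of each role, and in each comparison every called gene where 8 or fewer were called, otherwise up to 3 per role by smallest p; where fewer than 3 were called, also the 3 smallest p. Companion lists give up to 4 called genes each, and a few genes of these lists are not reported here. Recovered reads were also fitted with edgeR 4.0.16 and DESeq2 1.42.0. Other alternatives were a pseudocount of 5 or 0.5, a low-value filter at 50 or none, TMM or quantile scaling, a fit of only the groups compared, a replicate block, removal of libraries, and 3 sets of covariates (depth, striatal and olfactory bulb scores, and each library's length and GC slopes). A slope is the coefficient of log2 total exon length or of GC content in a fit to a library's centred log2 values over 12473 genes.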

Additional observations from a re-analysis of the deposited data

Results flagged for a closer look

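In 16 of the 156 sets examined (13 genes in 12 groups of 5), 1 library lay far from the other 4 by Dixon's 95% criterion; chance gives about 5%. WT fluoxetine male replicate 2 accounted for 7 of them. It was the highest of its group for Psmb5 (1982 normalized counts, next 1586), Psmb6 (2540, next 1969), Psmb7 (3627, next 2592), Psmd14 (2415, next 1876) and Psme2 (351.9, next 264.5), and the lowest for Psme3 (2674, next 2894) and Trip12 (4394, next 5726). HT vehicle male replicate 1 was the lowest of its group for Psmb5 (1408, next 1560) and the highest for Psme4 (2531, next 1960). WT lithium male replicate 4 was the lowest for Psme1 (575.4, next 647.1) and the highest for Psmb9 (32.95, next 17.51).

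Low values elsewhere were Psme2 in WT lithium female replicate 5 (212.4, next 281.5), Psme4 in HT vehicle female replicate 5 (1845, next 2035), Psmb10 in HT vehicle female replicate 1 (488.6, next 516.7) and Psmb9 in HT fluoxetine male replicate 1 (13.41, next 18.46). Psmb7 was high in HT lithium female replicate 2 (2942, next 2593).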

How the results depend on the processing

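Of 204 gene results, 204 kept their side of the threshold under TMM, no filter, either pseudocount and the replicate block, 202 under edgeR, 199 under DESeq2, 191 under quantile normalization, 164 with depth, 176 with the striatal and olfactory bulb scores (the tissue scores) and 151 with the length and GC slopes as covariates. No called gene reversed its direction under any alternative run. Among uncalled genes under fluoxetine over both genotypes, with depth Psmb2 turned to -0.0109, Psmb9 to 0.263 and Psme4 to 0.0477. Psmd4 and Psmd14 turned to 0.0074 and 0.005 with the slopes and to 0.0056 and 0.0009 with the replicate block and slopes. Psme4 turned to 0.0178 with the tissue scores and 0.0117 without the pair of libraries that stood apart. With 1 library left out Psmd14 ran from -0.03 to 0.0037 and Psme4 from -0.0328 to 0.0009. Counts of called genes among the 43 that moved were as follows, and where no value shows it the cause was not tested. Under DESeq2, HT against WT gave 2 under fluoxetine (males 1) and 2 over all. With depth, fluoxetine over both genotypes gave 8, lithium over both 2, lithium in HT males 1 and males against females 3. With the slopes, fluoxetine gave 6 over both, 7 in HT and 3 in HT females, lithium gave 8 in HT and 2 in HT females, fluoxetine against lithium gave 9 in HT and 2 in WT, and HT against WT and the sexes gave 0. With the replicate block and the slopes together, fluoxetine gave 8 over both and 3 in HT females, lithium 7 in HT and 2 in HT females, fluoxetine against lithium 8 in HT and 3 in WT, and HT against WT and the sexes 0. With only the groups compared, where fewer samples enter, lithium gave 1 in HT, 1 in HT males and 0 in HT females, and fluoxetine against lithium in WT gave 3. With the tissue scores, HT against WT gave 3 over all and 2 under fluoxetine (males 1), lithium gave 3 over both, 1 in HT and 0 in HT males, and the sexes gave 0. Without the pair of libraries that stood apart, fluoxetine gave 4 in WT and 2 in HT males, lithium 1 in HT males, and fluoxetine against lithium in WT 15.

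With 1 library left out, counts ran from 12 to 20 for fluoxetine over both genotypes, 8 to 13 in HT, 3 to 8 in HT females and 0 to 3 in WT. They ran from 3 to 7 for lithium over both, 1 to 3 in HT, 0 to 1 in HT females and 1 to 4 in HT males. Fluoxetine against lithium ran from 9 to 15 in HT and 2 to 15 in WT, HT against WT from 1 to 4 over all and 0 to 1 in fluoxetine males, and the sexes from 0 to 5. The other comparisons stayed at 0.

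Replicate numbers do not pair the libraries: same-numbered libraries had a mean correlation of deviations of -0.000246, 70 of 330 such pairs exceeded 0.1, and 12 of 60 libraries correlated best with their own number. The replicate block alone left every count within 1.5 times, with 16 calls for fluoxetine over both genotypes, and changed no named call. Depth limits Psmb8, Psmb9, Psma8 and Psmb11 most.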

Other observations

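Psmb11, known from the thymus, reached at least 10 normalized counts in 11 of 60 libraries, up to 32.9 in a WT lithium female. The olfactory bulb score (the mean centred log2 level of 6 marker genes) of those 11 libraries ran from 0.724 to 2.956, and that of the other 49 from -2.954 to 2.583 with a median of -0.44. This cut was chosen after the values were seen.

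The genotype rests on labels that the level of Trip12 did not reflect. Depth and length slope differed with treatment, and neither animals, litters nor batches are named. RNA alone was measured, not proteasome protein or activity. With 5 libraries a group the median SE was 0.105 on the log2 scale, and 0.0739 with the sexes averaged.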
